A study of Mus musculus with 12 samples.

Results

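The VEGF family and a small set of further angiogenic factors were followed as 10 genes: the ligands Vegfa, Vegfb, Vegfc, Vegfd and Pgf, the receptor Flt1, the co-receptors Nrp1 and Nrp2, the angiopoietin Angpt1 and the angiopoietin-like protein Angptl4. They were chosen by gene symbol, with earlier results of these data known, and all 10 were found among the 48709 gene IDs of each count table. The counts of called genes among them, and in the other lists below, describe these genes and are no test of the lists. Read counts per gene had been measured by RNA sequencing in 12 libraries of cultured mouse embryonic fibroblasts (MEFs) of the C57BL/6 strain, in 4 groups of 3. WT and TAZKo cells were each cultured in normoxia or exposed for 24 hours to hypoxia. TAZKo denotes a lack of tafazzin, the mitochondrial enzyme, encoded by Taz, that remodels the phospholipid cardiolipin; it is not the transcriptional co-activator that shares the abbreviation TAZ. The series asks how the lack of this enzyme bears on the response to low oxygen. The series describes the WT cells as isogenic to the TAZKo cells; how many lines or clones were used, how the gene was disrupted and the oxygen level are not given in the sources used here.

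VEGF ligands are secreted dimers that bind receptor tyrosine kinases, mainly Flt1, Kdr and Flt4, on endothelial cells, and they drive vessel growth and permeability. Neuropilins are co-receptors shared by VEGF ligands and class 3 semaphorins, and angiopoietins act through the separate receptor Tek. Fibroblasts are a source of such ligands, and Vegfa is a classical target of the hypoxia-inducible factors (HIF), transcription factors whose alpha subunits accumulate when oxygen is low and which bind DNA at a core of ACGTG or GCGTG.

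The targeted gene did not mark the label. Taz stood at 34.6 ± 2.92 CPM (counts relative to the library total, scaled between libraries; mean ± SD, n = 3 here and for every group below) in WT normoxia and at 42.2 ± 3.19 CPM in the normoxic libraries labelled TAZKo. In hypoxia it stood at 25.15 ± 1.49 CPM in WT and at 33.8 ± 1.15 CPM in the libraries labelled TAZKo. It was higher in the libraries labelled TAZKo in normoxia (log2 difference 0.28, adjusted p = 0.0139 by edgeR, SE 0.079) and in hypoxia (0.43, adjusted p = 0.00112 by edgeR, SE 0.080). A count summed over the whole gene does not show a small deletion or a change that spares the RNA, so the genotype is named by its label throughout. Genotype differences below are differences between the labels. With the number of lines not given, the genotype cannot be told apart from another difference between the cells that carry these labels.

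Library totals ran from 21039451 to 31204510 counts. Of the 10 genes, 9 passed the filter on low counts, with 122 to 10515 counts in a library, and they were tested together with all 14408 genes that passed it. Changes are log2 fold changes with their standard error (SE), and each adjusted p is from edgeR's quasi-likelihood test with Benjamini-Hochberg adjustment over the 14408 genes, called at 0.05. Nothing in the labels says that the 3 samples of a group came from separate cultures, so the p-values measure the spread between these samples, which may be technical. The fibroblast markers Fn1, Vim, Col1a1 and Col3a1 were abundant, with a summed level of the 14 markers of 10860 to 13980 CPM over the 12 libraries, although Thy1 and Lum were under 1 CPM in every library and Fap was listed at 0. Of 12 endothelial markers, 9 were under 1 CPM in every library, Erg and Sox17 at 0 throughout, and the remaining signal was Tek, Kdr and Egfl7. WT normoxia sample 1 stood apart from its group on the third principal component, at 35.7 against -12.8 and -13.4. On that component sample 1 was also above the other samples of its group in TAZKo-labelled normoxia and in WT hypoxia, with smaller gaps. This was not so in TAZKo-labelled hypoxia. What set sample 1 apart in these groups was not tested. Results that rest on single libraries are given with and without them. The lane named in the table names differed within every group, and each called difference of a member had the same sign within lane 4 and within lane 5. Lane 5 held a single library of each normoxic group, sample 3, and lane 4 a single library of each hypoxic group, sample 1. Each hypoxia response within a lane, and each difference of responses, thus rests on a single library of a group. These are the same libraries as in the test.

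Hypoxia raised 8 of the 9 tested genes in WT cells and lowered none, beside 26% of all tested genes called higher, 25% called lower and 51% called either way. In the libraries labelled TAZKo the same comparison also called 8 of 9 higher and none lower, beside 22.2% of all genes higher, 21.6% lower and 43.8% either way. The gene that did not pass was Nrp2 in each case. The median log2 change of the 9 genes was 1.17 in WT and 0.97 in the libraries labelled TAZKo, where the medians over all tested genes were 0.01 and -0.01.

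**Figure D1:**
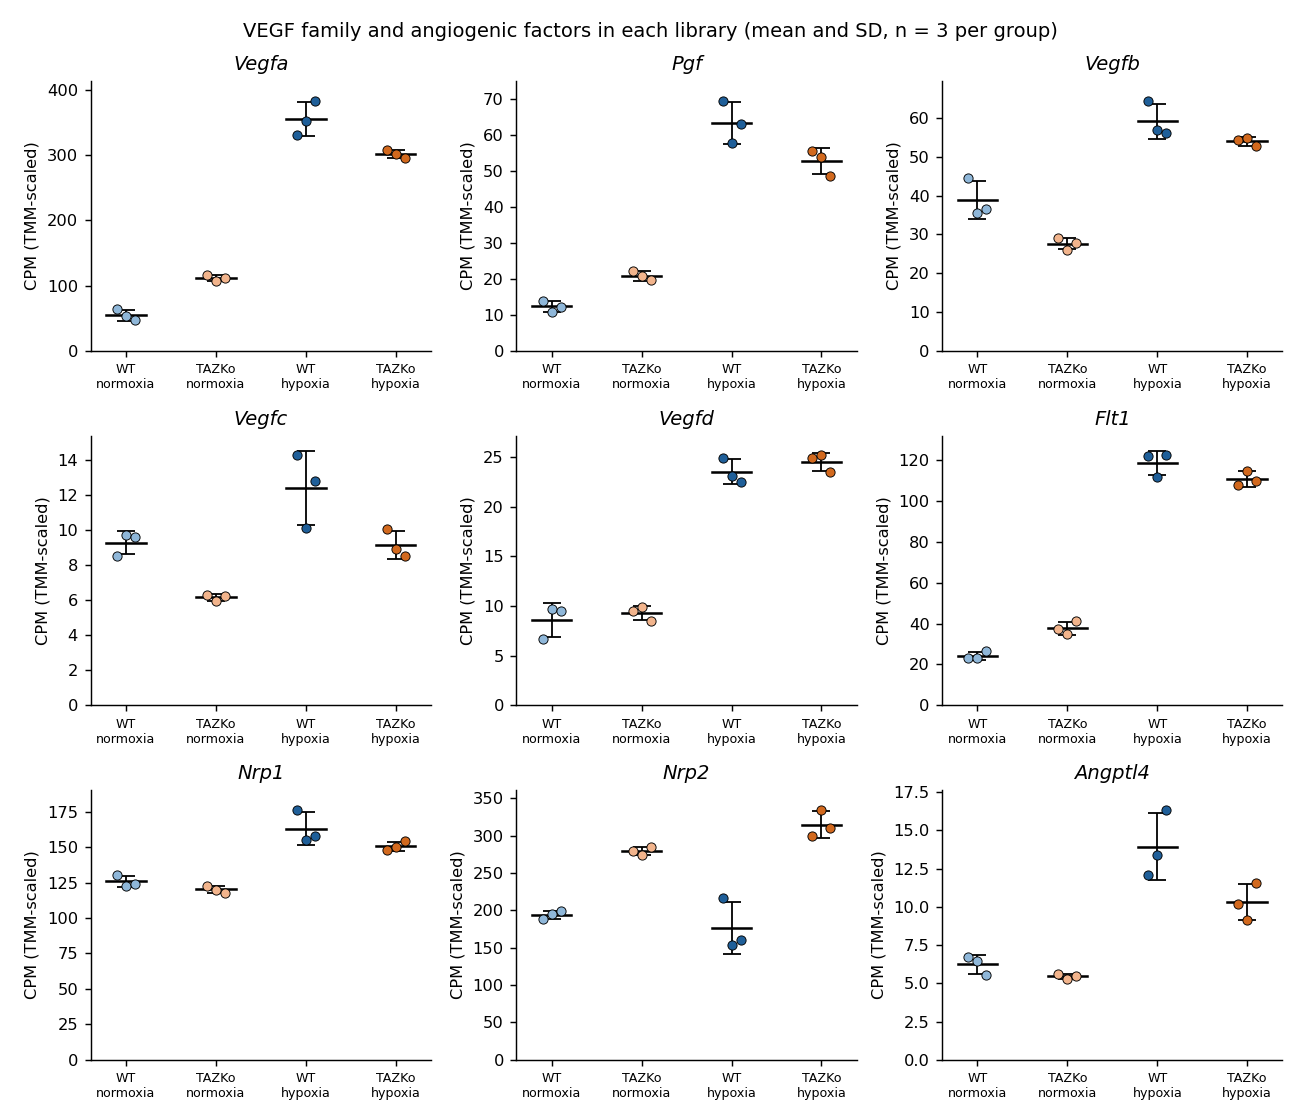
Level of each of the 9 tested genes in every library, in CPM (vertical axis, from 0), for WT (blue) and TAZKo-labelled (orange) cells in normoxia (light) and hypoxia (dark). Points are libraries in the order of their replicate numbers, and bars give the mean and SD of 3 libraries; Vegfa, Pgf and Flt1 show a lower start in WT normoxia (54.4, 12.3 and 24.2 CPM) than in TAZKo-labelled normoxia (111, 20.8 and 37.8 CPM).

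Vegfa, the ligand that drives most vessel sprouting, had the largest rise of the 9 genes in WT cells. The 3 WT libraries held 63.3, 52.6 and 47.3 CPM in normoxia and 330.5, 351 and 383 CPM in hypoxia, while the 3 libraries labelled TAZKo held 116, 106 and 111 CPM in normoxia and 308, 301 and 295 CPM in hypoxia. Every normoxic TAZKo-labelled library was thus above every normoxic WT library, and the order was the opposite in hypoxia, with no overlap of the groups in either condition. The rise was 6.53-fold in WT (log2 2.71, adjusted p = 8.37e-11 by edgeR, SE 0.095) and 2.71-fold in the libraries labelled TAZKo (log2 1.44, adjusted p = 4.25e-08 by edgeR, SE 0.091). The normoxic level was 2.04-fold higher in the libraries labelled TAZKo (log2 1.03, adjusted p = 1.93e-06 by edgeR, SE 0.092). The hypoxic difference of -0.24 (SE 0.088, 95% interval -0.41 to -0.06) did not pass, at an edgeR adjusted p of 0.0553. The responses themselves differed by -1.27 (adjusted p = 0.000241 by edgeR, SE 0.127). This last value is by construction the hypoxic genotype difference minus the normoxic one, so that most of it, 1.03, was the difference already present in normoxia.

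Pgf, the placental growth factor that binds Flt1 but not Kdr, followed the same pattern at a lower level. It read 13.8, 10.9 and 12.2 CPM in WT normoxia, 22.2, 20.7 and 19.6 CPM in TAZKo-labelled normoxia, 69.4, 57.6 and 63.1 CPM in WT hypoxia and 55.5, 53.7 and 48.7 CPM in TAZKo-labelled hypoxia. Again the TAZKo-labelled libraries were all higher in normoxia and all lower in hypoxia. The rise was 5.14-fold in WT (log2 2.36, adjusted p = 4.95e-10 by edgeR, SE 0.099) and 2.53-fold in the libraries labelled TAZKo (log2 1.34, adjusted p = 1.31e-07 by edgeR, SE 0.094), and the responses differed by -1.02 (adjusted p = 0.00178 by edgeR, SE 0.135). The normoxic difference was 0.76 (adjusted p = 7.63e-05 by edgeR, SE 0.101). The hypoxic difference of -0.27 (adjusted p = 0.0358 by edgeR, SE 0.090) was no longer called without WT hypoxia sample 1 or 3 or without TAZKo hypoxia sample 2 or 3, where its adjusted p was 0.105, 0.0666, 0.0618 and 0.124.

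Flt1, the receptor that binds Vegfa, Vegfb and Pgf and whose soluble splice form traps ligand, moved with both ligands. Its libraries held 23.2, 23.0 and 26.4 CPM in WT normoxia, 37.5, 34.8 and 41.1 CPM in TAZKo-labelled normoxia, 122, 112 and 122 CPM in WT hypoxia and 108, 115 and 109.6 CPM in TAZKo-labelled hypoxia. The normoxic groups did not overlap, and the hypoxic groups did. The rise was 4.90-fold in WT (log2 2.29, adjusted p = 6.93e-11 by edgeR, SE 0.079) and 2.93-fold in the libraries labelled TAZKo (log2 1.55, adjusted p = 3.1e-09 by edgeR, SE 0.076), with a difference of responses of -0.74 (adjusted p = 0.00279 by edgeR, SE 0.107). The genotype difference was 0.64 in normoxia (adjusted p = 3.55e-05 by edgeR, SE 0.078) and -0.10 in hypoxia (95% interval -0.24 to 0.04, adjusted p = 0.329 by edgeR). The counts cover the whole gene and do not separate the soluble from the membrane form, nor the splice forms of Vegfa.

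Vegfa, Pgf and Flt1 were the 3 of the 9 genes whose hypoxia responses differed between the genotype labels, all in the direction of a smaller response in the libraries labelled TAZKo, beside 2.43% of all genes called (350 genes, and 639 with the replicate number as a block), 0.722% with the larger and 1.71% with the smaller response there. The comparisons within normoxia, within hypoxia and of the responses share libraries, so the 3 values of a gene are not separate evidence. On the linear scale the rise of Vegfa was 300.4 CPM (SE 15.9) in WT and 190.1 CPM (SE 4.50) in the libraries labelled TAZKo. The rise of Pgf was 51.0 CPM (SE 3.50) against 31.8 CPM (SE 2.19), and that of Flt1 94.5 CPM (SE 3.59) against 72.9 CPM (SE 2.79). The smaller response was therefore seen on both scales. Within lanes 4 and 5 the difference of responses was -1.04 and -1.53 for Vegfa, -1.11 and -0.92 for Pgf and -0.82 and -0.70 for Flt1. Summed levels of endothelial markers differed between the labels, at 29.7 to 34.2 CPM in WT normoxia, 19.8 to 22.4 CPM in TAZKo-labelled normoxia, 19.98 to 25.8 CPM in WT hypoxia and 11.9 to 13.1 CPM in TAZKo-labelled hypoxia. Within this sum Tek and Kdr were lower in the libraries labelled TAZKo in both conditions, and Egfl7 was not. Egfl7 held 11.2 to 14.0, 13.1 to 14.3, 5.06 to 5.74 and 7.25 to 7.61 CPM in the same order of groups. Summed epithelial markers, nearly all Krt14 and Krt18, also differed, at 345.5 to 431 CPM, 197 to 212 CPM, 315 to 346 CPM and 256 to 258 CPM in the same order, with Epcam, Cdh1 and Cldn4 under 1 CPM in every library. Summed leukocyte markers were at 4.49 to 5.57, 4.48 to 5.30, 11.9 to 14.0 and 8.13 to 10.0 CPM, with Adgre1 and Tyrobp at 0. Summed mural cell markers were at 66.2 to 81.6, 81.1 to 94.6, 60.4 to 76.1 and 83.3 to 89.6 CPM in the same order, with 5 of the 8 under 1 CPM in every library. The part of these markers in the results was not tested. In a bulk library fewer cells of a type and less RNA per cell cannot be told apart.

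**Figure D2:**
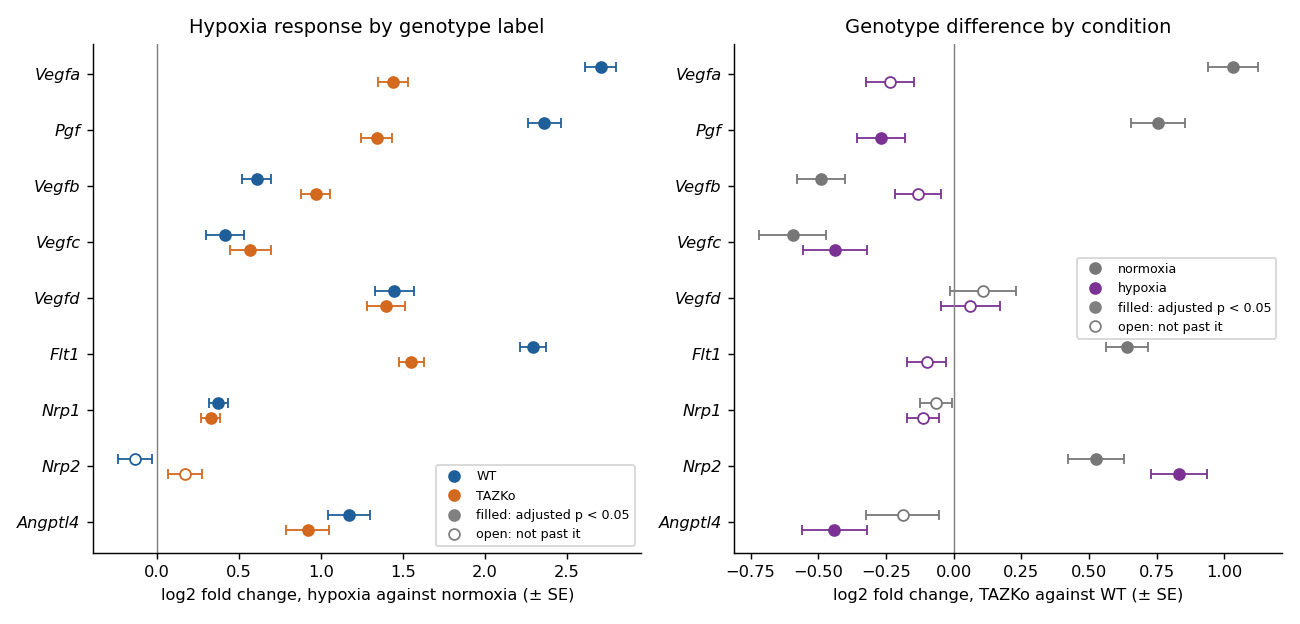
Log2 fold changes with SE from the model over all 12 libraries: on the left hypoxia against normoxia in WT (blue) and TAZKo-labelled (orange) cells, on the right TAZKo-labelled against WT cells in normoxia (grey) and hypoxia (purple). Filled points passed an adjusted p of 0.05; Vegfa, Pgf and Flt1 have separated responses on the left, and their normoxic differences of 1.03, 0.76 and 0.64 on the right fall to -0.24, -0.27 and -0.10 in hypoxia.

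The promoters of Vegfa and Flt1 are printed because these 2 genes moved together under hypoxia and because RefSeq gives each a start preceded by 250 bases free of annotated exons. Both lie on the minus strand of GRCm38.p6, and each is written 5′ to 3′ in the direction of transcription. The Vegfa window is chr17:46032378-46032627 and the Flt1 window is chr5:147726012-147726261. Capitals mark a HIF core, ACGTG or GCGTG, on either strand.
Vegfa: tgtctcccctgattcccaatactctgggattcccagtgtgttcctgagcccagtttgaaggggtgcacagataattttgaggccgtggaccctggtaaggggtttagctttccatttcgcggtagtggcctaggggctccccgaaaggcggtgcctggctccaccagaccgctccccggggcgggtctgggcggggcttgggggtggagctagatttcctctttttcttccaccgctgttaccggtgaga
Flt1: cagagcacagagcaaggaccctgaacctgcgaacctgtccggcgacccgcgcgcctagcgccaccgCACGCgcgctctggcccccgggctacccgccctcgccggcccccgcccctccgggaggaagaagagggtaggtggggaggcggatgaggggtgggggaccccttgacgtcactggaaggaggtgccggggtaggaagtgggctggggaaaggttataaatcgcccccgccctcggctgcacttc
The Vegfa window held neither core. The Flt1 window held 1 GCGTG, read on the reverse strand as CACGC and beginning 184 bases before the start. RefSeq windows were found for 8 of the 10 genes, all but Angpt1 and Angptl4. Pgf had 1 GCGTG 124 bases before 1 of its starts, Vegfb and Nrp2 had 2 GCGTG each, Nrp1 had 1, and Vegfc and Vegfd had none. A second RefSeq start of Vegfa lies inside the gene, in a window with annotated exons (chr17:46025164-46025413), and held 1 ACGTG and 1 GCGTG. Of 32851 mouse promoter windows of the same length, 16.6% held ACGTG, 28.2% held GCGTG and 38.6% held either. A match of 5 bases is a description of the letters and not a binding site, and the best known hypoxia response element of Vegfa lies further upstream than this window.

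Vegfb, a ligand of Flt1 linked to fatty acid handling and cell survival more than to sprouting, differed from Vegfa and Pgf in the direction of its normoxic difference. WT normoxia held 44.6, 35.4 and 36.6 CPM and TAZKo-labelled normoxia 29.0, 26.1 and 27.9 CPM, against 64.4, 57.0 and 56.2 CPM in WT hypoxia and 54.4, 54.9 and 52.7 CPM in TAZKo-labelled hypoxia. The normoxic TAZKo-labelled libraries were the lowest of all 12. Vegfb was lower there by a log2 difference of -0.49 (adjusted p = 0.000862 by edgeR, SE 0.089), and the difference in hypoxia was -0.13 (95% interval -0.30 to 0.04, adjusted p = 0.271 by edgeR). Hypoxia raised it 1.52-fold in WT (log2 0.61, adjusted p = 6.02e-05 by edgeR, SE 0.087) and 1.95-fold in the libraries labelled TAZKo (log2 0.97, adjusted p = 1.46e-06 by edgeR, SE 0.088). The difference of these responses, 0.36 (SE 0.123), did not pass, at an edgeR adjusted p of 0.165. The 492 tested genes of chromosome 19, where Vegfb lies, had a median difference between the labels of -0.27 in normoxia and -0.28 in hypoxia, and the part of this shift in the Vegfb result was not tested.

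Vegfc, a ligand of Flt4 that drives lymphatic growth, was the 1 ligand called lower in the libraries labelled TAZKo in both conditions. It held 8.54, 9.70 and 9.63 CPM in WT normoxia, 6.31, 5.94 and 6.21 CPM in TAZKo-labelled normoxia, 14.3, 10.1 and 12.8 CPM in WT hypoxia and 10.1, 8.93 and 8.50 CPM in TAZKo-labelled hypoxia. The genotype groups did not overlap in normoxia and met without crossing in hypoxia. The difference was -0.59 in normoxia (adjusted p = 0.00253 by edgeR, SE 0.124) and -0.44 in hypoxia (adjusted p = 0.0114 by edgeR, SE 0.118). The 796 tested genes of its chromosome, 8, had a median of -0.16 and -0.14 in these comparisons. The rise under hypoxia was 0.57 in the libraries labelled TAZKo (adjusted p = 0.00216 by edgeR, SE 0.124) and 0.41 in WT (adjusted p = 0.01 by edgeR, SE 0.118), and the WT call was lost without WT hypoxia sample 1 (log2 0.25, adjusted p = 0.0868) or sample 3 (log2 0.33, adjusted p = 0.0678).

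Vegfd, the other lymphatic ligand, rose under hypoxia with either label. It held 6.63, 9.65 and 9.49 CPM in WT normoxia and 9.51, 9.93 and 8.53 CPM in TAZKo-labelled normoxia, and 24.9, 23.1 and 22.5 CPM in WT hypoxia and 24.9, 25.1 and 23.5 CPM in TAZKo-labelled hypoxia. The genotype groups overlapped in both conditions, and each hypoxic library was above each normoxic one. The rise was 2.73-fold in WT (log2 1.45, adjusted p = 3.11e-07 by edgeR, SE 0.117) and 2.64-fold in the libraries labelled TAZKo (log2 1.398, adjusted p = 5.74e-07 by edgeR, SE 0.115), and the difference of -0.05 had a 95% interval of -0.37 to 0.27. Among the ligands it was the one with the smallest gap between the responses of the labels.

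Per kilobase of annotated exon (RPKM), Vegfb led the 5 ligands in WT normoxia, with 49.8% ± 1.97 of their summed level against 26.1% ± 1.84 for Vegfa. In TAZKo-labelled normoxia the order was turned, with 45.7% ± 0.462 for Vegfa and 30.4% ± 0.614 for Vegfb. Under hypoxia Vegfa held 53.0% ± 3.47 in WT and 51.7% ± 0.554 in the libraries labelled TAZKo, and Vegfb 23.6% ± 1.85 and 24.7% ± 0.361. Pgf rose from 8.74% ± 0.540 to 14.0% ± 1.09 of the sum in WT and stood at 12.6% ± 0.537 and 13.3% ± 0.531 in the libraries labelled TAZKo. Vegfc and Vegfd together with Pgf made up the rest, with Vegfc at 2.75% to 7.89% and Vegfd at 6.25% to 7.48% as group means. The sum of the 5 ligands was 48.5 ± 4.37 RPKM in WT normoxia, 56.7 ± 2.32 in TAZKo-labelled normoxia, 156 ± 4.85 in WT hypoxia and 136.0 ± 3.84 in TAZKo-labelled hypoxia. These shares are of RNA, and no test was made of them.

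**Figure D3:**
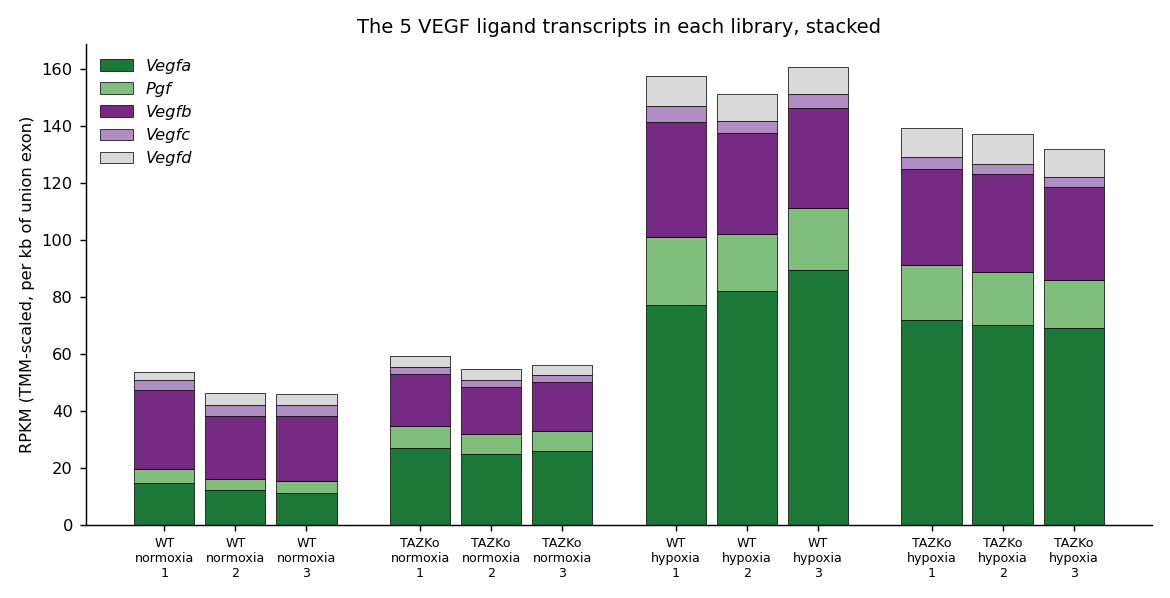
Levels of the 5 VEGF ligand transcripts stacked in each of the 12 libraries, in RPKM (vertical axis, from 0). The mean sum is 48.5 and 56.7 in the normoxic groups and 156 and 136.0 in the hypoxic ones, and Vegfa (dark green) exceeds Vegfb (dark purple) in all but the 3 WT normoxia libraries.

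The order of levels per kilobase among the 10 genes differed between the groups. The lengths join all annotated exons of a gene, 9785 bases for Nrp1, 11842 for Nrp2 and 13504 for Flt1. Their longest single transcripts have 3645, 6723 and 6895 bases. The order between genes depends on the length used, and no other length was tried. In WT normoxia Vegfb (24.2 ± 3.10 RPKM) led, then Nrp2 (16.4 ± 0.452), Nrp1 (12.9 ± 0.404) and Vegfa (12.7 ± 1.90), then Pgf (4.25 ± 0.511), Vegfc (3.79 ± 0.266) and Vegfd (3.57 ± 0.705), and last Flt1 (1.79 ± 0.141) and Angptl4 (1.76 ± 0.175). Nrp1 and Vegfa were within their spread, as were Pgf, Vegfc and Vegfd, and Flt1 and Angptl4. In WT hypoxia Vegfa led (82.8 ± 6.12 RPKM), followed by Vegfb (36.9 ± 2.82), Pgf (21.8 ± 2.02), Nrp1 (16.7 ± 1.17), Nrp2 (14.9 ± 2.95), Vegfd (9.77 ± 0.517), Flt1 (8.79 ± 0.438), Vegfc (5.06 ± 0.863) and Angptl4 (3.94 ± 0.614). There Nrp1 and Nrp2 were within their spread, and so were Vegfc and Angptl4. The libraries labelled TAZKo had Vegfa first in both conditions (25.9 ± 1.11 and 70.3 ± 1.44 RPKM), with Nrp2 next in normoxia (23.6 ± 0.411) and Vegfb next in hypoxia (33.6 ± 0.716), and Angptl4 last of the detected genes (1.54 ± 0.0438 and 2.91 ± 0.335).

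Nrp1, a co-receptor for Vegfa and for the semaphorin Sema3a, had the smallest of the called rises. It held 130.3, 123 and 124 CPM in WT normoxia, 123, 119.9 and 118 CPM in TAZKo-labelled normoxia, 176, 155 and 158 CPM in WT hypoxia and 148, 150.0 and 154 CPM in TAZKo-labelled hypoxia. The hypoxic libraries were all above the normoxic ones. The rise was 1.30-fold in WT (log2 0.37, adjusted p = 0.000133 by edgeR, SE 0.059) and 1.25-fold in the libraries labelled TAZKo (log2 0.33, adjusted p = 0.000536 by edgeR, SE 0.059). The genotype differences were -0.07 in normoxia (95% interval -0.18 to 0.05) and -0.11 in hypoxia (95% interval -0.23 to 0.00), neither called. The microRNA Mir1903 shares 80 exon bases with Nrp1 on the same strand, and the counts do not separate them.

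Nrp2, the co-receptor that pairs with Flt4 and binds Vegfc, was higher in the libraries labelled TAZKo in both conditions and was the gene of the 9 that did not pass the test for hypoxia. It held 188, 194 and 199 CPM in WT normoxia, 279.7, 274 and 284 CPM in TAZKo-labelled normoxia, 217, 153 and 160 CPM in WT hypoxia and 300.1, 334 and 309.5 CPM in TAZKo-labelled hypoxia. Every TAZKo-labelled library was above every WT library, and WT hypoxia sample 1 stood above the other 2 of its group. The difference was 0.53 in normoxia (adjusted p = 0.00151 by edgeR, SE 0.102) and 0.83 in hypoxia (adjusted p = 3.9e-05 by edgeR, SE 0.103). The hypoxia responses were -0.14 in WT (adjusted p = 0.294 by edgeR) and 0.17 in the libraries labelled TAZKo (adjusted p = 0.195 by edgeR), and their difference of 0.31 (SE 0.145) had an edgeR adjusted p of 0.329. Without WT hypoxia sample 1 the WT response became -0.36 (adjusted p = 0.000377), that of the libraries labelled TAZKo was 0.14 (adjusted p = 0.0483), and their difference became 0.50 (SE 0.081, adjusted p = 0.00526). That sample was in lane 4 and the other 2 of its group in lane 5, and within the lanes the difference of responses was -0.07 and 0.52.

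Angptl4, a secreted inhibitor of lipoprotein lipase that is induced by fasting, by PPAR receptors and by hypoxia, was low but responsive. It held 6.72, 6.45 and 5.54 CPM in WT normoxia, 5.60, 5.29 and 5.47 CPM in TAZKo-labelled normoxia, 12.1, 13.4 and 16.3 CPM in WT hypoxia and 10.2, 9.17 and 11.5 CPM in TAZKo-labelled hypoxia. The genotype groups overlapped in normoxia and not in hypoxia. The rise was 2.25-fold in WT (log2 1.17, adjusted p = 4.75e-06 by edgeR, SE 0.127) and 1.89-fold in the libraries labelled TAZKo (log2 0.92, adjusted p = 7.38e-05 by edgeR, SE 0.129), and the difference of responses of -0.25 (95% interval -0.61 to 0.10) did not pass. The hypoxic level was lower in the libraries labelled TAZKo by -0.44 (adjusted p = 0.0121 by edgeR, SE 0.120), a call that was lost without WT hypoxia sample 3 (log2 -0.31, adjusted p = 0.0696) or TAZKo hypoxia sample 2 (log2 -0.37, adjusted p = 0.0614). The normoxic difference of -0.19 had a 95% interval of -0.46 to 0.08.

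Angpt1, the ligand that activates Tek, had 0 counts in all 12 libraries and was not tested. A count of 0 allows a level of up to 0.0927 to 0.1501 CPM, depending on the library, taken as 3 counts; this covers counting error only. Of the 50-base words of its longest transcript, 16.3% also occur in other annotated genes, against at most 0.862% for the other 9 genes. The gene Gm17473 shares 737 exon bases with Angpt1 on the opposite strand. How reads from such shared bases were counted is not known.

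Between genotypes in normoxia, 4 of the 9 genes were higher in the libraries labelled TAZKo (Vegfa, Pgf, Flt1 and Nrp2) and 2 were lower (Vegfb and Vegfc), beside 15.6% of all genes higher, 14.9% lower and 30.4% either way. In hypoxia 1 was higher (Nrp2) and 3 were lower (Pgf, Vegfc and Angptl4), beside 15.8%, 16.9% and 32.8%. The median difference of the 9 genes was 0.11 in normoxia and -0.13 in hypoxia, beside 0.01 and -0.01 over all tested genes. Vegfa, Pgf and Flt1, higher in normoxia, had hypoxic differences below 0, of which that of Pgf passed the test. Without WT normoxia sample 1 the members called were again 6 between the labels in normoxia, 8 in each hypoxia response and 3 in the difference of responses, and 5 in place of 4 between the labels in hypoxia, where Vegfa joined. That count of 4 was 2 without WT hypoxia sample 3 or without TAZKo hypoxia sample 2.

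The receptors and angiopoietin-system genes outside the 10 differed by label and by condition. Of 13 such genes 8 were tested, and in the libraries labelled TAZKo 2 were higher and 6 lower in normoxia, beside 15.6% and 14.9% of all genes, and 2 were higher and 4 lower in hypoxia, beside 15.8% and 16.9%, with medians of -1.20 and -0.84. Hypoxia raised 3 and lowered 2 in WT, beside 26% and 25% of all genes, and raised 4 and lowered 2 in the libraries labelled TAZKo, beside 22.2% and 21.6%, and no difference of responses passed. All 8 tested genes are described next, and all but Angptl7 were named and grouped after their values were seen.

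Kdr, the main signalling receptor of Vegfa, was low throughout, at 3.16 ± 0.605 CPM in WT normoxia and 0.998 ± 0.115 CPM in TAZKo-labelled normoxia (log2 difference -1.65, adjusted p = 1.57e-05 by edgeR, SE 0.184). Its hypoxic levels were 3.20 CPM in WT and 1.16 CPM in the libraries labelled TAZKo, and no hypoxia response of it was called. Flt4, the receptor of Vegfc and Vegfd, held 11.5, 12.02 and 11.8 CPM in WT normoxia and 861 counts over the group, but 5 counts in the 3 normoxic libraries labelled TAZKo, a ratio of 187 with a 95% counting interval of 79.7 to 577. In hypoxia it held 386 counts in WT and 1 count in the libraries labelled TAZKo (ratio 433, interval 77.2 to 17130), and in WT it fell by 1.09 on the log2 scale (adjusted p = 1.55e-05 by edgeR, SE 0.134). Tek, the angiopoietin receptor, stood at 16.0 CPM in WT normoxia and 4.91 CPM in TAZKo-labelled normoxia, and at 13.4 and 3.16 CPM in hypoxia. The phosphatase Ptprb, which restrains Tek, stood at 6.85 and 2.22 CPM and at 8.74 and 3.11 CPM. These 4 receptor-side genes were thus all lower in the libraries labelled TAZKo in both conditions, whereas Nrp2 was higher in both and Flt1 was higher in normoxia.

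Angpt2, the hypoxia-induced counterpart of Angpt1, rose from 0.780 to 2.54 CPM in WT (log2 1.69, adjusted p = 6.75e-06 by edgeR, SE 0.190) and from 0.472 to 2.12 CPM in the libraries labelled TAZKo (log2 2.18, adjusted p = 2.15e-06 by edgeR, SE 0.207). Of the angiopoietin-like genes, Angptl2 stood at 40.2 CPM in WT normoxia, 58.5 in TAZKo-labelled normoxia, 45.0 in WT hypoxia and 79.2 in TAZKo-labelled hypoxia, and Angptl6 at 1.46, 5.05, 4.87 and 14.9 CPM in the same order. Angptl7 went the other way from Angptl4, with 2910 counts in WT normoxia and 6 in WT hypoxia (ratio 463, 95% counting interval 213 to 1264) and with 1870 and 9 counts in the libraries labelled TAZKo (ratio 205, interval 108 to 449). All 3 normoxic libraries of each label held at least 17.0 CPM of Angptl7, and the hypoxic libraries held at most 0.1795 CPM.

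**Figure D4:**
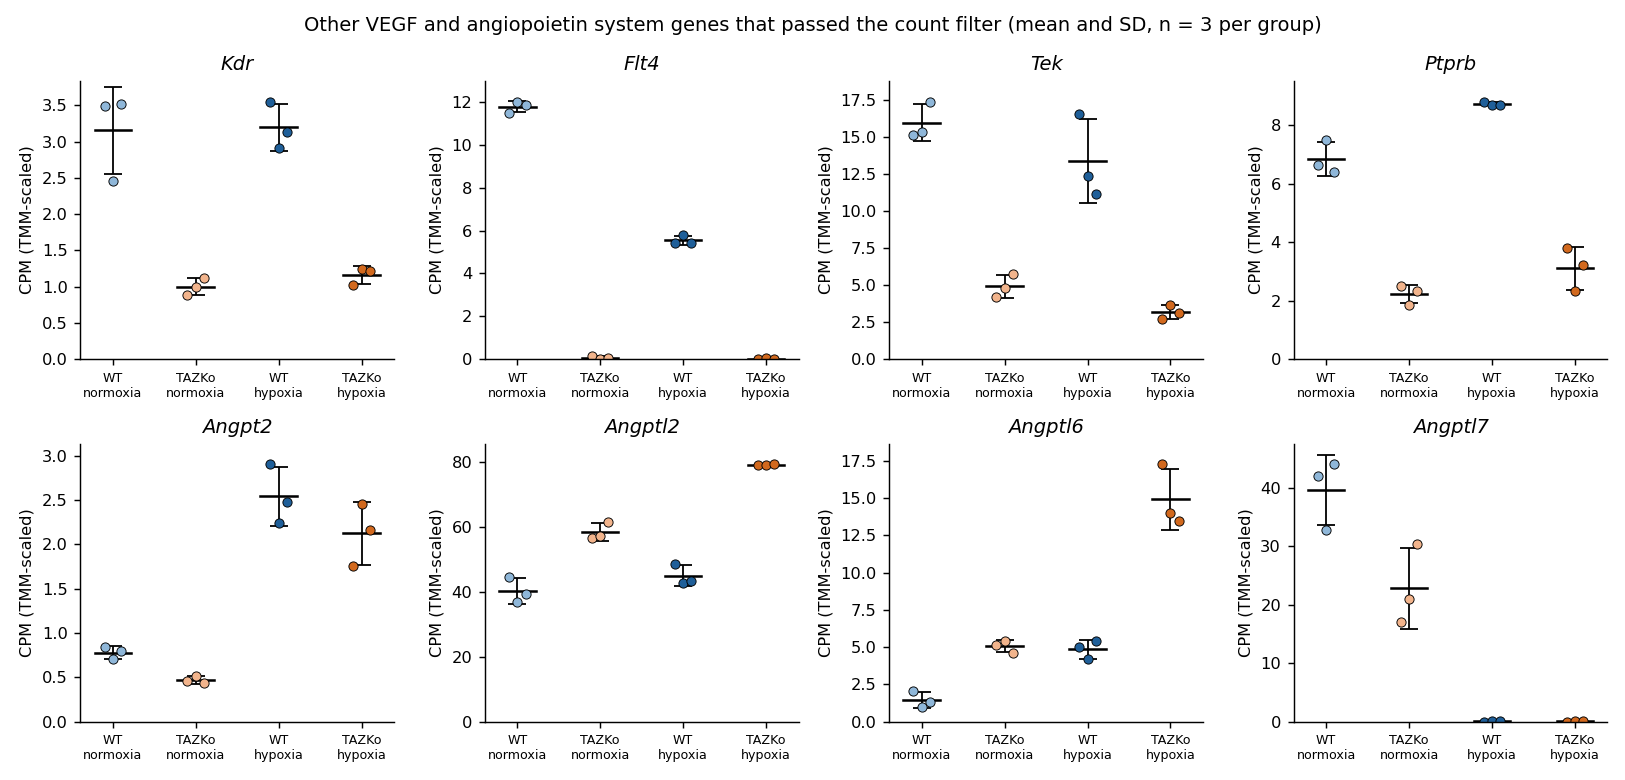
Levels of the 8 tested receptor and angiopoietin-system genes outside the 10 members of the set, in CPM per library (vertical axis, from 0), by label and condition, with the mean and SD of 3 libraries. Kdr, Flt4, Tek and Ptprb are lower in both orange groups, and Angptl7 is near 0 in both hypoxic groups.

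Class 3 semaphorins, which compete with VEGF ligands for neuropilins, and their plexin receptors were all tested (12 of 12). In the libraries labelled TAZKo 4 were higher and 3 lower in normoxia, where 30.4% of all genes were called either way, and 6 were higher and 4 lower in hypoxia, where 32.8% were. Hypoxia raised 2 and lowered 6 in WT and raised 1 and lowered 5 in the libraries labelled TAZKo, with medians of -0.21 and -0.04, and 51% and 43.8% of all genes were called either way in these comparisons. Sema3a, the repulsive ligand of Nrp1, fell under hypoxia, with changes of -0.87 in WT (SE 0.158) and -2.07 in TAZKo-labelled cells (SE 0.160), a difference of responses of -1.20 (adjusted p = 0.0125 by edgeR, SE 0.223). Plxna2, one of its plexins, rose by 0.25 and 0.76, a difference of 0.51 (adjusted p = 0.0219 by edgeR, SE 0.106). Sema3c had the larger of the 2 called rises in WT, 0.30 (adjusted p = 0.0198 by edgeR, SE 0.099), and Plxnd1, the plexin of endothelial guidance, the largest called fall, -0.99 (adjusted p = 2.03e-07 by edgeR, SE 0.077).

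Of 20 other secreted angiogenic factors 13 were tested. Hypoxia raised 7 and lowered 1 in WT and raised 7 and lowered 2 in the libraries labelled TAZKo, with medians of 0.65 and 0.45, beside 26% of all genes higher and 25% lower in WT and 22.2% and 21.6% in the libraries labelled TAZKo. Edn1, Cyr61 and Ctgf, 3 of the 13, had smaller responses in the libraries labelled TAZKo, beside 1.71% of all genes. Edn1, the vasoconstrictor endothelin, stood at 15.2 and 10.0 CPM in WT and TAZKo-labelled normoxia and at 47.0 and 16.4 CPM in hypoxia (difference of responses -0.91, adjusted p = 0.000412 by edgeR, SE 0.101). The matricellular factor Cyr61 stood at 132 and 248 CPM in normoxia and at 416 and 257 CPM in hypoxia (-1.60, adjusted p = 1.22e-05 by edgeR, SE 0.105), so that, as with Vegfa, the normoxic level was the higher one in the libraries labelled TAZKo. Its relative Ctgf stood at 16.8 and 23.4 CPM and at 93.0 and 38.7 CPM (-1.75, adjusted p = 0.00016 by edgeR, SE 0.165). Apln, a ligand of vessel growth that HIF is known to induce, had the largest rise in WT among those with at least 10 CPM in a group, 3.64 (SE 0.161), and rose by 3.38 (SE 0.149) in the libraries labelled TAZKo, with a difference of -0.26 (adjusted p = 0.643 by edgeR, SE 0.232).

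Of 13 inhibitors of angiogenesis 12 were tested, among them the intracellular protein Spry1. Hypoxia raised 5 and lowered 3 in WT and raised 4 and lowered 2 in the libraries labelled TAZKo, with medians of 0.15 and -0.05. The 8 and 6 of 12 called either way stand beside 51% and 43.8% of all genes. The response was called lower in the libraries labelled TAZKo for 3 of the 12, beside 1.71% of all genes. The protease Adamts1, which binds Vegfa, stood at 140 and 159 CPM in WT and TAZKo-labelled normoxia and at 356 and 181.5 CPM in hypoxia (difference of responses -1.16, adjusted p = 0.00016 by edgeR, SE 0.109). Thbs1, thrombospondin, rose by 0.71 in WT and 0.26 in the libraries labelled TAZKo (difference -0.45, adjusted p = 0.0375 by edgeR, SE 0.104), and the chemokine Cxcl10 fell by 1.10 in the libraries labelled TAZKo (SE 0.085) against a value of -0.18 in WT that did not pass (difference -0.92, adjusted p = 0.00177 by edgeR, SE 0.120). Serpinf1, the anti-angiogenic factor PEDF, had the largest called fall in WT among those with at least 10 CPM in a group, -1.46 (SE 0.113), and was 1.43 higher in normoxia and 1.89 higher in hypoxia in the libraries labelled TAZKo on the log2 scale.

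**Figure D5:**
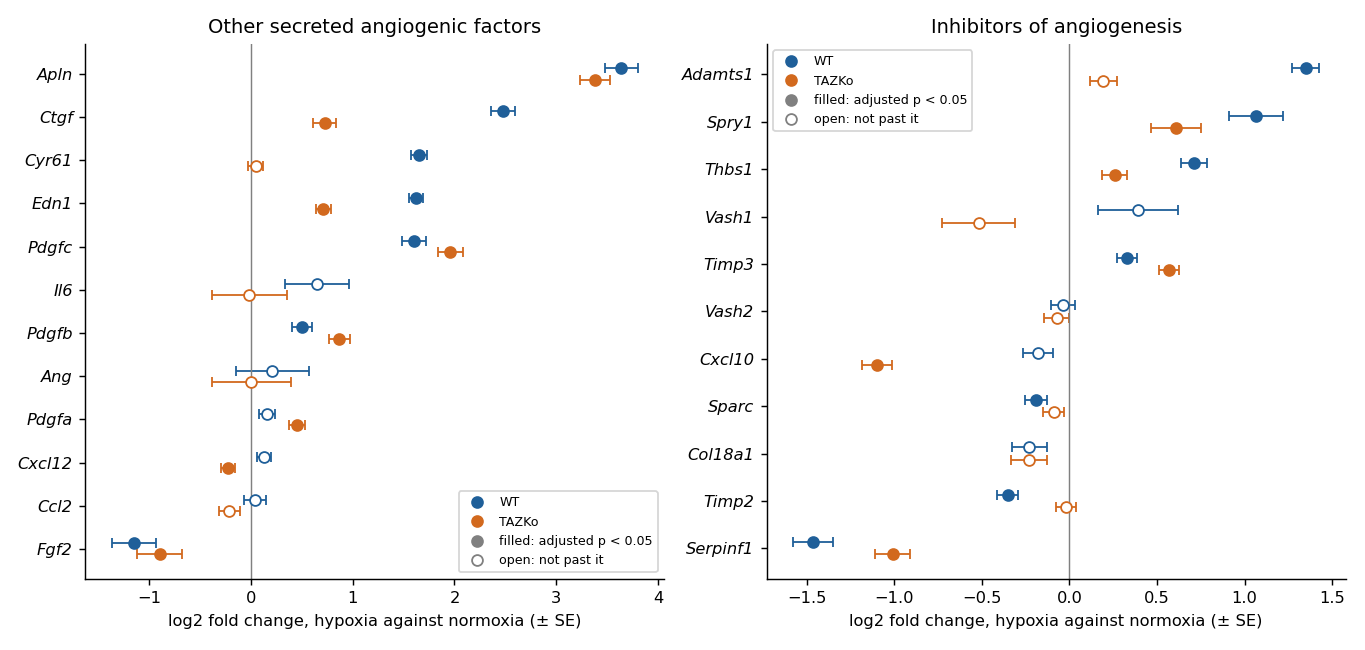
Hypoxia against normoxia as log2 fold change with SE for other secreted angiogenic factors (left) and inhibitors of angiogenesis (right), in WT (blue) and TAZKo-labelled (orange) cells; filled points passed an adjusted p of 0.05. Adm and Thbs2 are left out because no normoxic library held over 3 counts of them; Ctgf, Cyr61, Edn1, Adamts1, Thbs1 and Cxcl10, the 6 with a called difference of responses, have the orange point on the left.

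The lipoprotein lipase system and PPAR targets, the metabolic setting of Angptl4, gave 11 tested genes of 15. In the libraries labelled TAZKo 1 was higher and 2 lower in normoxia and none was higher and 5 lower in hypoxia, where 30.4% and 32.8% of all genes were called either way. Hypoxia raised 5 and lowered 1 with either label, and 51% of all genes were called either way in WT and 43.8% in the libraries labelled TAZKo. Lpl, the enzyme that Angptl4 inhibits, named after its values were seen, stood at 258.5 ± 25.9 CPM in WT normoxia, 102 ± 7.08 in TAZKo-labelled normoxia, 243 ± 9.19 in WT hypoxia and 121 ± 0.949 in TAZKo-labelled hypoxia. Hilpda, a hypoxia-induced inhibitor of intracellular lipolysis, stood at 7.75, 7.52, 59.9 and 38.4 CPM in the same order, with a difference of responses of -0.60 (adjusted p = 0.0292 by edgeR, SE 0.130). Its normoxic difference was -0.05 (adjusted p = 0.76 by edgeR, SE 0.101), where those of Vegfa, Pgf and Flt1 were called.

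Over the 12 libraries the 5 genes most like Vegfa in log2 CPM, of 9437 with a mean of at least 10 CPM, were Siah2 (Pearson r = 0.997), Pgf (0.992), Zdhhc9 (0.991), Lonp1 (0.991) and Eif4ebp1 (0.991). Siah2, a ubiquitin ligase, stood at 22.4 and 32.9 CPM in WT and TAZKo-labelled normoxia and at 65.2 and 58.6 CPM in hypoxia. Among the genes most like Angptl4 were Inhba (0.985), Tcf25 (0.981), Atxn7l2 (0.977) and Pcyt2 (0.976). These correlations describe 12 libraries in 4 groups that share their conditions and carry no p.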

How the data were processed

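RNA was sequenced from 12 samples in 4 groups of 3, with the Illumina TruSeq RNA kit v2, per the labels' protocols. That kit does not mark strand, so overlapping genes on opposite strands cannot be told apart. The authors deposited 1 table of whole-number read counts per Ensembl gene for each sample. The genome build mm10 is named in the submitters' processing notes, and the aligner, the counting program and the annotation are not given in the sources used here. Of 48709 gene IDs, 48349 matched GENCODE M21, which gave symbols, coordinates on GRCm38 and exon lengths. Genes kept by filterByExpr (14408) were scaled by TMM and fitted over all 12 samples with edgeR 4.0.16 (limma 3.58.1, R 4.3.3), 1 coefficient per group. The quasi-likelihood F test was taken for 5 contrasts, with Benjamini-Hochberg adjustment over all genes and a threshold of 0.05. The SE of a log2 change is its absolute value over the root of F, and 95% intervals are the change plus or minus 1.96 SE. CPM and RPKM are scaled by TMM, and ratios against groups at a few counts have exact Poisson intervals. The fit was checked on simulated data.

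The members and the gene lists were chosen with earlier results of these data known. All members are named. Of the other lists, genes are named where the difference of responses was called. Named too are the largest called rise and fall of each list in WT, with at least 10 CPM in a group. Outside this rule, Lpl and the tested receptor and angiopoietin-system genes other than Angptl7 were named after their values were seen. Further genes are named to describe the cells, the lists or a figure. Most-alike genes are those of highest Pearson correlation. A gene among those most like Angptl4 is not reported here. Alternatives were DESeq2 size factors, library size alone, no filter, a minimum mean of 5 CPM, a block for replicate number, lane as a covariate, DESeq2 1.42.0 as the test, only the samples of a comparison, and leaving out each sample. For the pairing check, deviations from group means of same-numbered samples correlated at 0.354, 0.149 and 0.228 between the normoxic groups and at 0.368, 0.204 and 0.152 between WT normoxia and hypoxia, so that these pairs deviate together, although no label says what the numbers mean. Between TAZKo-labelled normoxia and hypoxia they correlated at 0.028, -0.024 and 0.095, so there the numbers do not pair. No 2 samples of a group agreed within sampling noise.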

Additional observations from a re-analysis of the deposited data

Results flagged for a closer look

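The hypoxia responses of 3 genes differed between the genotype labels by a test of the difference itself. For Vegfa the response in the libraries labelled TAZKo minus that in WT was -1.27 on the log2 scale. For Pgf the same difference was -1.02, and for Flt1 it was -0.74. The 3 values come from the same 12 libraries, and every one of them kept its direction and its call in each of the 19 alternatives run for it, with adjusted p-values of at most 0.00219 for Vegfa, 0.00953 for Pgf and 0.0162 for Flt1.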

How the results depend on the processing

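Over all alternatives, 868 of 891 recomputed log2 changes of members kept their side of the threshold. Another 13 passed it anew, 10 no longer passed and none was called in the opposite direction. Among the 868, some uncalled changes changed sign. That of Vegfd between the labels in normoxia, 0.109, reached -0.045. The uncalled differences of responses of Vegfd, -0.048, and of Nrp1, -0.047, reached 0.105 and 0.033. The count of genes with different responses rose from 350 to 727 without the low-count filter, 639 with the replicate block and 574 with DESeq2, and ran from 174 to 711 when 1 sample was left out (711 without WT hypoxia sample 1, 556 without WT normoxia sample 1, and 174 to 216 without any 1 TAZKo-labelled sample or WT hypoxia sample 2 or 3); the members among them rose from 3 to 5 without the filter (Vegfb and Nrp2 joined) and ran from 3 to 4 with 1 sample left out. The members called between the labels in hypoxia were 4, and 2 to 5 with 1 sample left out, the 2 without WT hypoxia sample 3 or TAZKo hypoxia sample 2. Vegfa in hypoxia was called without the filter (-0.22, adjusted p = 0.0357), with the replicate block (-0.24, 0.0375), with the 6 hypoxic samples alone (-0.22, 0.0132) and without WT normoxia sample 1 (-0.24, 0.00405), WT normoxia sample 3 (-0.25, 0.0225) or WT hypoxia sample 1 (-0.30, 0.0322), and its adjusted p reached 0.183 elsewhere. Between the labels in hypoxia the same-numbered samples correlated at 0.055, -0.024 and 0.121, so there the numbers do not pair; the block changed no other call of a member. Pgf in hypoxia was not called with library size alone (-0.25, 0.0533), and Vegfc in WT not with the 6 WT samples alone (0.36, 0.0646). With library size alone the median over all genes moved to -0.10 in both hypoxia responses, and of 7783 called genes in WT 2966 were higher (main: 3750 of 7355), of 6863 in the libraries labelled TAZKo 2470 (main: 3198 of 6309). The causes were not tested. Depth limits Angpt1, and the few counts of Flt4 and Angptl7. The part of shared bases in the absence of Angpt1 counts was not tested.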

Other observations

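The cell-type marker lists were moved by condition and label as follows. Of 14 fibroblast markers 11 were tested, and hypoxia raised 5 and lowered 5 in WT and raised 4 and lowered 4 in the libraries labelled TAZKo. Of all tested genes 26% were higher and 25% lower in WT, and 22.2% and 21.6% in the libraries labelled TAZKo. Between the labels 5 of the 11 were higher and 3 lower in TAZKo-labelled normoxia, beside 15.6% and 14.9% of all genes. In hypoxia 4 were higher and 3 lower there, beside 15.8% and 16.9%. Vim had the largest rise in WT (log2 1.20) and Pdgfrb, the receptor of platelet-derived growth factor B, the largest fall (-1.03). Fbn1, fibrillin, stood at 17.5 CPM in WT normoxia, 3.39 in TAZKo-labelled normoxia, 37.9 in WT hypoxia and 14.1 in TAZKo-labelled hypoxia, with a difference of responses of 0.94 (edgeR adjusted p = 0.000491).

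Of 12 endothelial markers 4 were tested, of which the libraries labelled TAZKo had 1 higher and 2 lower in either condition. Of all tested genes 15.6% were higher and 14.9% lower between the labels in normoxia, and 15.8% and 16.9% in hypoxia. Egfl7 fell in WT under hypoxia (-1.26). Of 8 mural markers 3 were tested, and Acta2, smooth muscle actin, fell in WT (-0.68). In the libraries labelled TAZKo 1 mural marker was higher in normoxia and 2 in hypoxia, and none was lower, beside the same shares. Of 8 leukocyte markers 2 were tested, and both rose under hypoxia with either label. Of all tested genes 26% were called higher in WT and 22.2% in the libraries labelled TAZKo. Between the labels 1 leukocyte marker was lower in either condition and none was higher, beside the shares given for the endothelial markers. Of 8 epithelial markers 4 were tested. In the libraries labelled TAZKo 1 was higher and 3 lower in normoxia, and none higher and 1 lower in hypoxia, beside those shares. The keratin Krt14 stood at 244.5, 104, 200.3 and 133 CPM in WT normoxia, TAZKo-labelled normoxia, WT hypoxia and TAZKo-labelled hypoxia. Its difference of responses was 0.64 (edgeR adjusted p = 0.00771).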
